A study of Mus musculus with 12 samples.

Results

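The genes described here are 9 transcripts best known from myeloid cells and mast cells: Lyz2, Spi1, Tyrobp, Fcer1g, Fcgr2b, Sirpa, Ccl6, Ccl9 and Cpa3. They were measured in cultures of purified CD4+ T cells, and they were taken by gene symbol from 23991 symbols. They were chosen by the FPKM values themselves, because markers of this kind had been lower in Adcy10-/- than in WT libraries, so every difference between genotypes below is a description of the values that chose the genes and carries no test. The effect of the cytokines was not used in the choice and was tested.

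Soluble adenylyl cyclase, which produces cAMP within cells, is the product of Adcy10. CD4+ T cells were purified, by removing other cells on magnetic beads, from spleens or lymph nodes of male mice aged 8 to 10 weeks, of the strain C57BL/6 and either WT or Adcy10-/-. Polyadenylated RNA was sequenced after 18 hours of culture in baseline medium, alone or with polarizing cytokines. The titles of all libraries name Th17, also those in baseline medium, and those with cytokines add the word plus. The 4 groups, WT and Adcy10-/- in each medium, held 3 libraries each, numbered 1 to 3. The series protocol lists plate-bound anti-CD3 (10 µg/mL), soluble anti-CD28 (2 µg/mL), the cytokines IL-6 (25 ng/mL), IL-1β (20 ng/mL) and, also at 20 ng/mL, IL-23, and antibodies to IFNγ and IL-4 (each 1 µg/mL), and does not say which of these the baseline medium held. The labels do not say that the replicates of a group came from separate animals, so p-values measure the spread between these samples and no more. They describe no Cre or transgene and do not say in which cells Adcy10 is lost.

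Myeloid cells are macrophages, monocytes, dendritic cells and granulocytes. They are known for Fc receptors that bind antibody, for adaptors with an activating tyrosine motif that carry the signals of such receptors, for receptors that restrain them, and for secreting chemokines and lysozyme. Mast cells and basophils use the same adaptors for their IgE receptor, and mast cells store proteases in granules. A CD4+ T cell culture can hold such cells where the purification left them, and activated T cells can transcribe some of the same genes. In RNA from whole cultures, fewer cells of a type and less RNA per cell cannot be told apart.

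Promoters of members show where a factor encoded by one member could be looked for in the others. Spi1 encodes PU.1, which binds sites with an ETS core, and mast cell genes are known for GATA sites. The 250 bases before the start of transcription were read from RefSeq (GRCm38.p6) for the 6 members that matched by symbol, Lyz2, Fcer1g, Fcgr2b, Ccl6, Ccl9 and Cpa3. All 6 lie on the minus strand and are written here in the direction of transcription. For ETS factors the letters AGGAAGT were searched on both strands, and for GATA factors the letters AGATAA, which share no overlap with the first in these promoters. Capitals mark a match, and ACTTCCT is AGGAAGT read from the other strand. Shown are the 3 promoters with a match and that of Fcer1g, the member on which the test of the cytokines turned. They lie at chr10:117282273-117282522 (Lyz2), chr11:83593088-83593337 (Ccl6), chr3:20242182-20242431 (Cpa3) and chr1:171234350-171234599 (Fcer1g).
Lyz2: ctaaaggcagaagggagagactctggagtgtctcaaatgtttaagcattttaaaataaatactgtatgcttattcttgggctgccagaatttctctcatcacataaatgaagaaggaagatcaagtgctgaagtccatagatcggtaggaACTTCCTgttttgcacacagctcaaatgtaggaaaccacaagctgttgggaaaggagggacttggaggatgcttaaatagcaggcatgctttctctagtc
Ccl6: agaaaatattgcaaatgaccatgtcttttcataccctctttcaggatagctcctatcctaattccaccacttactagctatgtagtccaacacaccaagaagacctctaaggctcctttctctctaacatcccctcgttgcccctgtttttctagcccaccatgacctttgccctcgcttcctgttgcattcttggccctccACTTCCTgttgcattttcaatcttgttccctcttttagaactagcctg
Cpa3: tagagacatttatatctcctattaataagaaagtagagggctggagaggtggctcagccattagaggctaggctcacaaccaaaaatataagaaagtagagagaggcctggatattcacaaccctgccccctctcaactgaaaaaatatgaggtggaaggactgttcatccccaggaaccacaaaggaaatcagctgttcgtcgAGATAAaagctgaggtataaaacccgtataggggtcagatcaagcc
Fcer1g: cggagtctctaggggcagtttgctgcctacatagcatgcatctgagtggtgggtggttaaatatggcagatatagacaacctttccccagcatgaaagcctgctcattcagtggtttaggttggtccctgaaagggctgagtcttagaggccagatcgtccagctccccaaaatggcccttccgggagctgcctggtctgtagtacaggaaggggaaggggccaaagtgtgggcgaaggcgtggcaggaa
The ETS letters stood 100 bases before the start of Lyz2 and 48 before that of Ccl6, and the GATA letters 46 before that of Cpa3. No promoter held both. Of 32851 RefSeq promoters of the same length, 7.69% held the ETS letters and 9.99% the GATA letters, against 2 of 6 and 1 of 6 members. A match is a run of letters, and binding was not measured.

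Values are FPKM, which is scaled for library size and transcript length, so levels can be compared between genes. Read depth is unknown. The libraries summed to 547870 to 594750 FPKM, and libraries of a group correlated across genes at 0.9936 to 0.9965. The 18 genes of CD4 T cell identity all passed the filter described below and summed to 3440 to 4142 FPKM per library. Adcy10 was listed at 0 in all 12 libraries, which leaves the genotype labels unchecked by it. The 4 libraries numbered 1 stood apart from the others in B cell markers, whose 14 genes summed to 3.15, 14.8, 3.55 and 8.27 FPKM in them (WT and Adcy10-/- in baseline medium, then with cytokines) and to 35.2 to 97.2 FPKM in the other 8.

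All 9 genes were detected in all 12 libraries and passed the filter for testing, which asked for 1 FPKM or more in 3 or more libraries and which 10126 symbols passed. Sirpa and Cpa3 reached 1 FPKM in WT libraries only, so both passed through the genotype in which they are higher. Without the WT libraries with cytokines neither Sirpa nor Cpa3 would have passed, and Cpa3 would not have passed without the WT baseline libraries either. This limits every count below that includes them beside a share of tested genes. For Sirpa it also limits every p-value for the cytokines, which is given as a description. Lyz2 stood far above the rest, with a mean of 29.4 FPKM over the 12 libraries, while the means of the other 8 lay between 0.838 (Cpa3) and 5.23 (Tyrobp). The plot of FPKM by library shows their levels in each culture. Below, values are listed for replicates 1, 2 and 3 in that order.

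**Figure D1:**
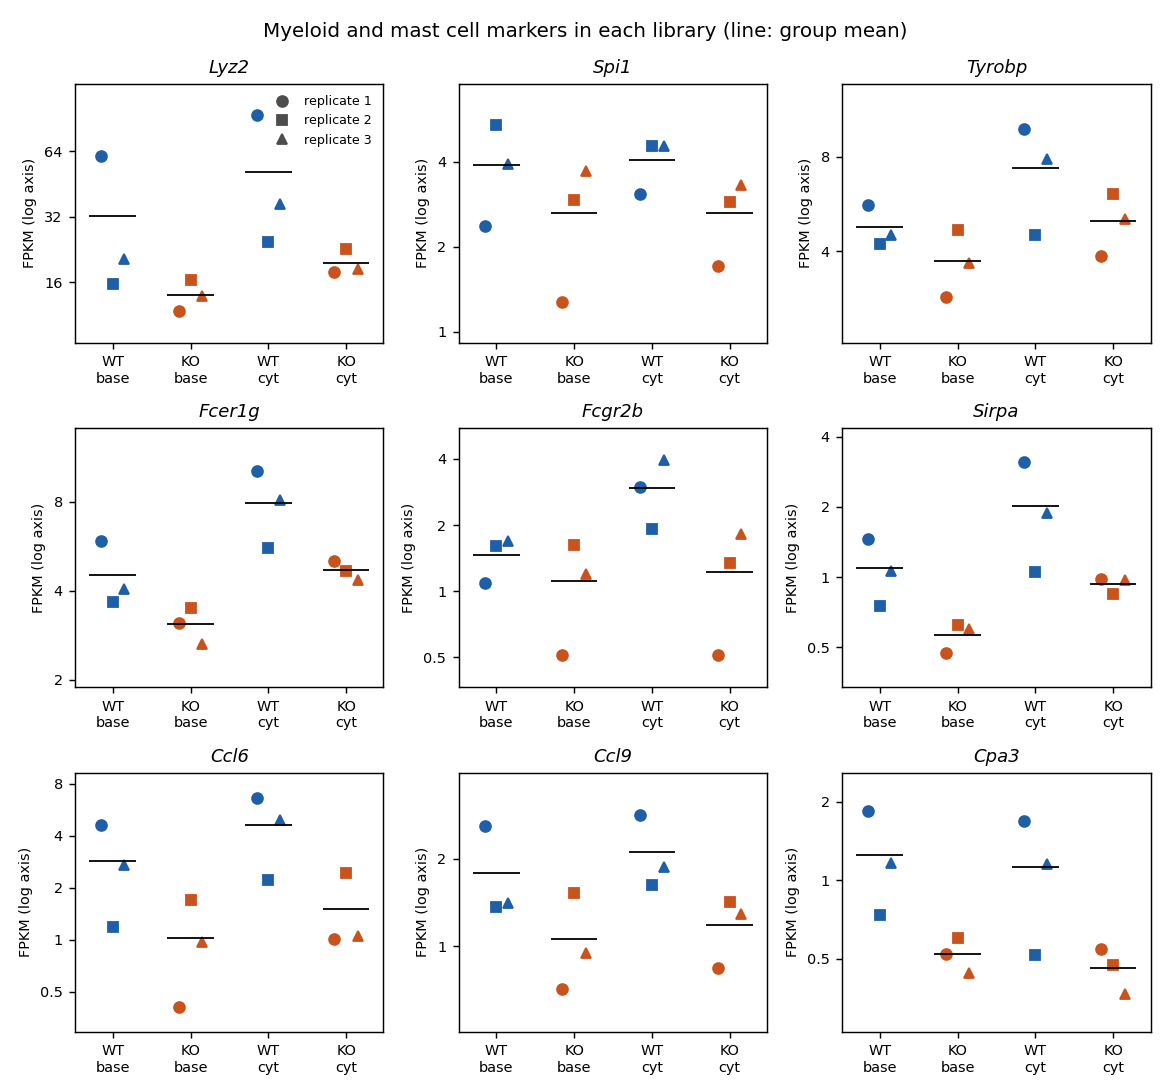
FPKM (log axis) of each of the 9 genes in each of the 12 libraries, by group: WT and Adcy10-/- (KO) in baseline medium (base) and with cytokines (cyt). Symbols mark the replicate number and lines the mean of 3 libraries; WT replicate 1 with cytokines (blue circle) was the highest library for 6 of the 9 genes.

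Among the 9, Spi1 encodes the transcription factor, PU.1, which directs myeloid development and is also made in B cells. Spi1 was at 2.38, 5.41 and 3.94 FPKM in WT baseline cultures, 1.28, 2.93 and 3.72 in Adcy10-/- baseline cultures, 3.08, 4.54 and 4.54 in WT cultures with cytokines and 1.71, 2.87 and 3.30 in Adcy10-/- cultures with cytokines. Replicate 1 was the lowest library of each group. In both WT groups most members were instead highest in replicate 1 (7 of 9 in each). The group means were 3.91 ± 1.52, 2.64 ± 1.25, 4.06 ± 0.843 and 2.63 ± 0.825 FPKM (SD, n = 3 each, in the same order of groups), and all neighbours in the order of means overlapped.

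The receptor and adaptor genes lay at low levels. Tyrobp encodes DAP12, an adaptor with an activating tyrosine motif that serves many myeloid and NK cell receptors. Tyrobp was at 5.63, 4.20 and 4.51 FPKM (WT baseline), 2.85, 4.67 and 3.67 (Adcy10-/- baseline), 9.80, 4.51 and 7.88 (WT with cytokines) and 3.87, 6.11 and 5.05 (Adcy10-/- with cytokines). Replicates 1 and 3 of the WT cultures with cytokines were the 2 highest libraries, and the groups overlapped in both media.

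Fcer1g encodes the Fc receptor gamma chain, the signaling subunit of the IgE receptor and of activating IgG receptors. Its values were 5.90, 3.66 and 4.06 FPKM (WT baseline), 3.12, 3.50 and 2.64 (Adcy10-/- baseline), 10.2, 5.59 and 8.15 (WT with cytokines) and 5.05, 4.68 and 4.36 (Adcy10-/- with cytokines). In each medium, the 3 Adcy10-/- libraries lay below the 3 WT libraries. The means were 4.54 ± 1.19 and 3.09 ± 0.433 FPKM in baseline medium and 7.97 ± 2.30 and 4.695 ± 0.345 with cytokines (WT and Adcy10-/-, SD, n = 3 each).

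Fcgr2b encodes the inhibitory IgG Fc receptor, found on myeloid cells and B cells. Its values were 1.10, 1.61 and 1.69 FPKM (WT baseline), 0.512, 1.62 and 1.20 (Adcy10-/- baseline), 2.99, 1.92 and 3.95 (WT with cytokines) and 0.515, 1.35 and 1.82 (Adcy10-/- with cytokines). The WT cultures with cytokines lay above all 9 other libraries. Both Adcy10-/- libraries numbered 1 lay below all the rest.

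Sirpa encodes an inhibitory receptor of macrophages and dendritic cells for CD47. It was at 1.46, 0.751 and 1.06 FPKM (WT baseline), 0.471, 0.624 and 0.601 (Adcy10-/- baseline), 3.11, 1.05 and 1.89 (WT with cytokines) and 0.979, 0.848 and 0.970 (Adcy10-/- with cytokines). In each medium the 3 Adcy10-/- libraries lay below the 3 WT libraries, by a narrow gap at WT replicate 2.

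The chemokine genes Ccl6 and Ccl9 lie side by side on chromosome 11, and their products bind the receptor Ccr1. Ccl6 was at 4.65, 1.18 and 2.70 FPKM (WT baseline), 0.411, 1.71 and 0.973 (Adcy10-/- baseline), 6.63, 2.21 and 4.95 (WT with cytokines) and 1.02, 2.43 and 1.05 (Adcy10-/- with cytokines). It had the widest range of the 9, with a highest library 16.1 times the lowest. At number 2 the Adcy10-/- library exceeded its WT counterpart in both media. RefSeq places E230016K23Rik over Ccl6, and how the authors divided reads between them is not stated.

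Ccl9 was at 2.59, 1.36 and 1.41 FPKM (WT baseline), 0.711, 1.53 and 0.946 (Adcy10-/- baseline), 2.83, 1.62 and 1.87 (WT with cytokines) and 0.841, 1.43 and 1.29 (Adcy10-/- with cytokines). The genotypes overlapped in baseline medium and not with cytokines, where Adcy10-/- replicate 2 came closest to WT.

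Lyz2 encodes lysozyme M, the enzyme of macrophages and neutrophils that cuts bacterial cell walls. It was at 60.9, 15.7 and 20.5 FPKM (WT baseline), 11.8, 16.3 and 13.8 (Adcy10-/- baseline), 93.5, 24.5 and 36.8 (WT with cytokines) and 17.8, 22.7 and 18.3 (Adcy10-/- with cytokines). The 2 WT libraries numbered 1 stood well above the other 10. The WT mean was 2.32 times the Adcy10-/- mean in baseline medium and 2.63 times with cytokines, and without the libraries numbered 1 these ratios were 1.20 and 1.49. The paralog Lyz1, which shares sequence with Lyz2, was at 0.126 to 0.807 FPKM.

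Cpa3 encodes the carboxypeptidase of mast cell granules, also made by basophils and their progenitors. It was at 1.85, 0.736 and 1.17 FPKM (WT baseline), 0.522, 0.601 and 0.439 (Adcy10-/- baseline), 1.68, 0.518 and 1.15 (WT with cytokines) and 0.547, 0.474 and 0.367 (Adcy10-/- with cytokines). All 6 Adcy10-/- libraries lay between 0.367 and 0.601 FPKM, and only WT replicate 2 with cytokines fell into that range. RefSeq places Gm31320, Mir7007 and Gm7428 over Cpa3.

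Between genotypes, every member had a lower mean in Adcy10-/- than in WT cultures in both media. The gap in log2(FPKM + 1) was widest between the libraries numbered 1 for each member in each medium, except for Spi1 in baseline medium (-0.57 at number 1 and -0.705 at number 2). The ratio of the WT to the Adcy10-/- mean ran from 1.28 (Tyrobp) to 2.76 (Ccl6) in baseline medium and from 1.48 (Tyrobp) to 3.07 (Ccl6) with cytokines. Without the libraries numbered 1 the ratios of Ccl6 were 1.45 and 2.06 and those of Tyrobp 1.045 and 1.11. The log2(FPKM + 1) scale understates changes of genes near or below 1 FPKM. On it, the difference averaged over media (Adcy10-/- minus WT) was -1.03 for Lyz2 and -0.99 for Ccl6. The smallest was -0.37 for Tyrobp. The median over the 9 was -0.52, against -0.01 over all tested genes. These values chose the genes, and nothing is read from them beyond their size.

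Paired by number, the difference was uneven. All 9 genes were lower in Adcy10-/- at number 1 and at number 3 in both media, with a median log2 difference of -0.78 and -0.37 in baseline medium and -1.06 and -0.66 with cytokines. At number 2, 4 of 9 were lower in baseline medium (median 0.01) and 7 of 9 with cytokines (median -0.11). The genes lower in all 6 pairs were Spi1, Fcer1g, Sirpa and Cpa3. That is 4 of 9, and 2.58% of tested genes were lower in all 6. The rule used this contrast, and nothing is read from this share. The plot of differences by number shows that number 2 lies near 0 for most genes, with Spi1 as an exception.

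**Figure D2:**
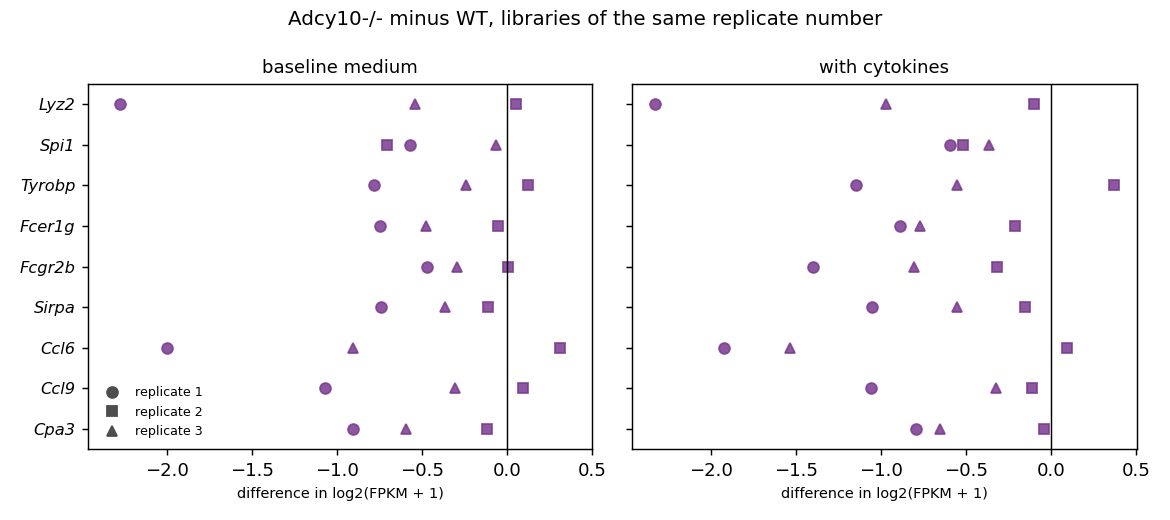
Difference in log2(FPKM + 1) between the Adcy10-/- and the WT library of the same replicate number, for each gene, in baseline medium (left) and with cytokines (right). Points left of 0 are lower in Adcy10-/-; all circles (number 1) and triangles (number 3) lie there, and squares (number 2) lie on both sides.

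Groups that did not overlap were 3 of 9 in baseline medium (Fcer1g, Sirpa and Cpa3), where 2.42% of tested genes were lower in Adcy10-/- without overlap. With cytokines they were 5 of 9 (Lyz2, Fcer1g, Fcgr2b, Sirpa and Ccl9), where the share of tested genes was 3.4%. Over both media, none of the 9 had all 6 Adcy10-/- libraries below all 6 WT libraries, and 0.0593% of tested genes did. The rule used this contrast, and nothing is read from these shares. Across all 10126 genes, limma called 0.0% between genotypes averaged over media (0 genes, 180 at an unadjusted p under 0.05). With the replicate number as a block limma called 3 genes.

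Without the 4 libraries numbered 1, all 9 averaged differences kept their sign and all were smaller. The members were chosen by this sign, and nothing is read from its being kept. Lyz2 stood at -0.39, Ccl6 at -0.51, Spi1 at -0.41, Fcer1g at -0.38, Cpa3 at -0.35, Fcgr2b at -0.35, Sirpa at -0.29, Ccl9 at -0.16 and Tyrobp at -0.075. Spi1 moved least, from -0.47 with all libraries. Markers of some other cell types were lower in Adcy10-/- in the same 8 libraries: all 11 tested B cell genes (median -0.38) and 7 of 9 dendritic cell genes (median -0.29), beside a median of -0.35 for the members and -0.01 for all tested genes, of which 53.6% were below 0. Fc receptor and adaptor genes were below 0 in 6 of 6 cases (median -0.21), and macrophage and monocyte genes in 7 of 9 (median -0.07). Of the myeloid transcription factors 4 of 5 were above 0 (median 0.07). The part of these lists in the members' differences was not tested.

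With the polarizing cytokines, transcripts of the Fc receptor gamma chain rose. Averaged over genotypes, Fcer1g rose by 0.58 on the log2(FPKM + 1) scale (SE 0.13, 95% interval 0.30 to 0.87, limma adjusted p = 0.0123), and it was higher in 6 of 6 pairs of the same genotype and number. It was 1 of 9 members to pass, while 6.57% of tested genes rose and 13.2% passed in either direction. Without the 4 libraries numbered 1, Fcer1g and Lyz2 passed, 2 of 9, where 8.92% of tested genes did. The call held in each of the 12 fits that left out a library, with changes of 0.495 to 0.686. The fits compared cytokines with baseline medium across the 4 groups.

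The libraries of a genotype that share a number deviated together (r = 0.294 to 0.536 between residuals over 6 pairs), so a fit with a block for each genotype and number was also made. There, 6 of 9 members rose, and 12.1% of tested genes did (26.7% in either direction). Lyz2 rose by 0.57 (SE 0.04, adjusted p = 3.79e-05, against 0.342 without the block). Ccl6 rose by 0.43 (adjusted p = 0.00236, against 0.376), Tyrobp by 0.42 (0.00527, against 0.127), Sirpa by 0.395 (0.00558, against 0.105) and Fcgr2b by 0.36 (0.0404, against 0.252), all limma adjusted p-values. Fcer1g was at an adjusted p of 0.000204. Libraries that share only a number also deviated together in part (r = 0.074 to 0.523), and in the fit with the replicate number as a block across genotypes Fcer1g (limma adjusted p = 0.00266) and Sirpa (0.0374) rose, 2 of 9, where 11.7% of tested genes did. Lyz2 (0.194), Ccl6 (0.306), Tyrobp (0.101) and Fcgr2b (0.0888) did not pass there. The 6 of the block within genotype are an adaptor, a signaling subunit, the inhibitory receptors, a chemokine and lysozyme. Sirpa passed the filter only through the WT libraries with cytokines, the group with its highest mean. Its p-values here and its place in the 2 of 9 and 6 of 9 are therefore no support for a rise.

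Ccl9, Spi1 and Cpa3 did not pass in either fit. Their changes were 0.13 for Ccl9 (95% interval -0.19 to 0.45), 0.05 for Spi1 (-0.40 to 0.51) and -0.08 for Cpa3 (-0.39 to 0.24) without the block. Cpa3 was higher with cytokines in 1 of 6 pairs and Spi1 in 3 of 6. Higher in all 6 pairs were Lyz2, Tyrobp, Fcer1g, Sirpa and Ccl6, 5 of 9 members, and 13.2% of tested genes were. The limit that the filter sets on Sirpa holds for this count too. The plot of cytokine differences shows those 5 genes wholly to the right of 0.

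**Figure D3:**
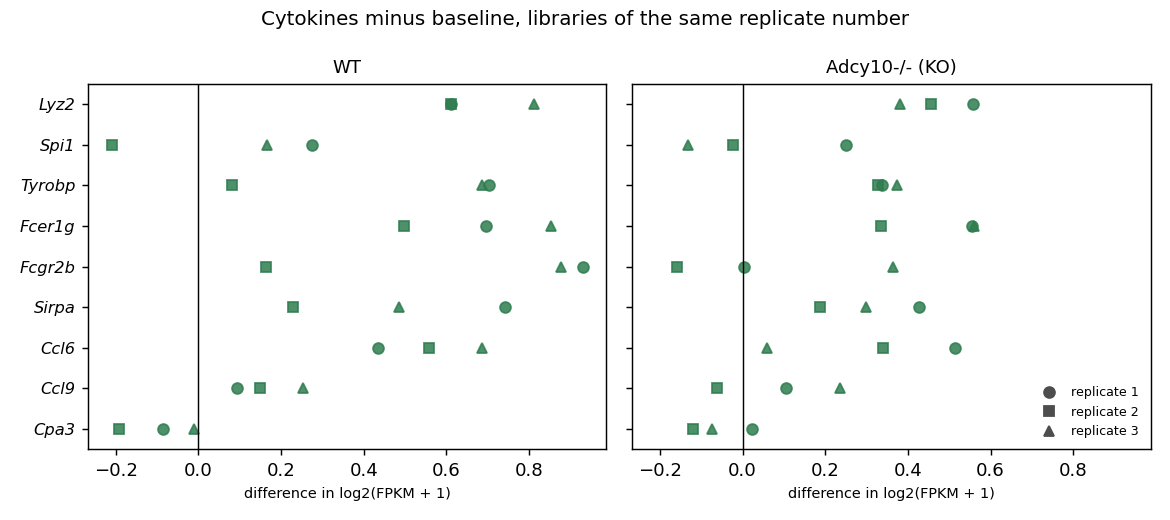
Difference in log2(FPKM + 1) between the library with cytokines and the baseline library of the same genotype and replicate number, for each gene, in WT (left) and Adcy10-/- (right). All 6 points of Lyz2, Tyrobp, Fcer1g, Sirpa and Ccl6 lie right of 0, and those of Spi1 and Cpa3 lie on both sides.

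Within WT alone, no member passed limma without the block, where 4.93% of tested genes did, and 3 of 9 were at an unadjusted p under 0.05 (Fcer1g, Fcgr2b and Sirpa). Fcer1g changed by 0.68 (SE 0.185, limma adjusted p = 0.059) and passed when WT replicate 1 in baseline medium (adjusted p = 0.0296) or WT replicate 2 with cytokines (0.0199) was left out. In the fit with the block for each genotype and number, the same 6 genes as in the average rose (8.05% of tested genes did), led by Lyz2 with a rise of 0.68 (SE 0.06, adjusted p = 0.000244). Both counts include Sirpa, with the limit that the filter sets on it. Fcgr2b was the member whose 3 WT libraries with cytokines all lay above the 3 in baseline medium, 1 of 9, and 10.5% of tested genes did so.

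Within Adcy10-/- alone, no member passed limma without the block, where 4.27% of tested genes did, and 1 of 9 (Fcer1g) was at an unadjusted p under 0.05. Fcer1g changed by 0.48 (SE 0.185, limma adjusted p = 0.212). With the block, where 5.41% of tested genes rose, Lyz2 rose by 0.465 (SE 0.06, adjusted p = 0.00157) and Fcer1g by 0.48 (SE 0.08, adjusted p = 0.00651). Lyz2, Fcer1g and Sirpa were the 3 of 9 whose Adcy10-/- libraries with cytokines all lay above those in baseline medium, and 9.28% of tested genes did so.

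Whether the cytokine effect differed between genotypes was tested as the interaction. No member passed limma and 0 of 9 were at an unadjusted p under 0.05, while 0.0% of tested genes passed (0 genes, 112 at an unadjusted p under 0.05). The widest difference was that of Fcgr2b, which changed by 0.66 in WT and by 0.07 in Adcy10-/-. Its interaction was -0.59 (95% interval -1.41 to 0.23, limma adjusted p = 1.0), and with the block for each genotype and number its interval was -1.09 to -0.085 (adjusted p = 0.992). The interaction of Lyz2 was -0.21 (-1.73 to 1.31), and with that block its interval was -0.39 to -0.03 (unadjusted p = 0.025, limma adjusted p = 0.992). For Fcer1g it was -0.20 (-0.77 to 0.37).

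Markers of other cell types moved between these libraries as well. The plot of summed levels sets 5 marker lists beside the 9 members, whose sum was 34.6 to 86.5 FPKM in WT and 21.65 to 33.5 in Adcy10-/- baseline cultures, and 46.4 to 133.8 and 32.3 to 42.9 with cytokines.

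**Figure D4:**
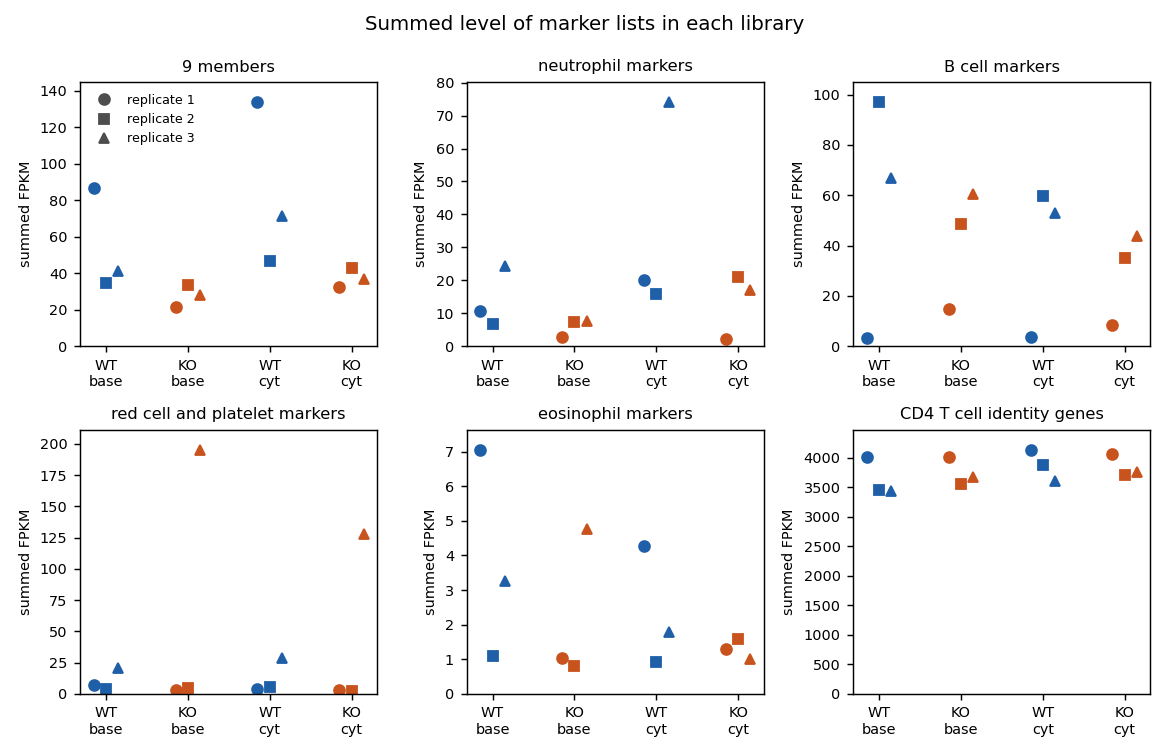
Summed FPKM of the 9 members and of 5 lists of cell type markers in each library, by group as in the plot of single genes; each axis starts at 0. B cell markers are lowest in the 4 libraries numbered 1, neutrophil markers are highest in WT replicate 3 with cytokines, and red cell and platelet markers are highest in both Adcy10-/- libraries numbered 3.

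Neutrophil markers followed the members in part. Their 15 genes summed to 6.63 to 24.2 FPKM in WT and 2.65 to 7.58 in Adcy10-/- baseline cultures, and to 15.9 to 74.2 and 2.07 to 20.9 with cytokines. S100a8 and S100a9, which encode the paired calcium-binding proteins of neutrophil cytoplasm, were at 27.45 and 32.2 FPKM in WT replicate 3 with cytokines and at 0.338 and 0.109 in Adcy10-/- replicate 1 with cytokines. All 5 tested genes of the list were lower in Adcy10-/- on average (median -0.63), and 0 passed limma between genotypes (1 at an unadjusted p under 0.05, Ctsg). Of all tested genes, 56.2% were lower on average. Under 0.5 FPKM in all 12 libraries were Elane, Csf3r, Cxcr2, Retnlg and Mmp8.

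Macrophage and monocyte markers were mostly low. Of 22 genes, 9 passed the filter, and Emr1, Fcgr1, Mrc1, Cx3cr1, Aif1, C1qa, Ms4a7 and Cd163 were under 0.5 FPKM in all 12 libraries. Emr1 encodes F4/80 and Fcgr1 the high-affinity IgG receptor, which define mature macrophages. The list summed to 194.1 to 239.7 FPKM in WT and 191.0 to 260.1 in Adcy10-/- baseline cultures, and to 253.1 to 255.5 and 246.1 to 252.4 with cytokines, most of it from Ly6c1, which T cells also express, and Ctss. On average 7 of the 9 tested genes were lower in Adcy10-/- (median -0.19), beside 56.2% of all tested genes, and 0 passed limma between genotypes (2 at an unadjusted p under 0.05, Clec7a and Cybb).

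The tested mast cell and basophil markers other than Cpa3 lay on both sides of 0 between genotypes. Of 23 genes other than Cpa3, 7 passed the filter. On average 3 of these 7 were lower in Adcy10-/- (median 0.00), beside 56.2% of all tested genes, and 0 passed limma between genotypes (1 at an unadjusted p under 0.05, Il4). The 7 include Srgn and the cytokine genes Il4, Il13 and Csf1. Paired by number, Mcpt8, Hdc, Ms4a2 and Cd200r3 were lower in Adcy10-/- in 5 of 6 pairs. Kit, Gata2, Fcer1a, Prss34, Cma1, Hpgds, Slc18a2, Alox5, Il4 and Srgn were lower in 4 of 6. Mitf and Il3ra were lower in 3, Mcpt1, Mcpt2, Tpsb2, Il13 and Csf1 in 2, and Mcpt4 in 1. Tpsab1, a mast cell tryptase, was listed at 0 in all 12 libraries, and Mcpt1, Mcpt2, Mcpt4, Cma1, Tpsb2, Mitf, Cd200r3, Slc18a2 and Hpgds were under 0.5 FPKM throughout. Mcpt8, a protease of basophils, was at 3.69, 1.46 and 1.67 FPKM (WT baseline), 2.37, 0.820 and 0.994 (Adcy10-/- baseline), 2.71, 0.520 and 1.46 (WT with cytokines) and 0.927, 0.677 and 1.28 (Adcy10-/- with cytokines). Mcpt8, lower in Adcy10-/- in 5 of 6 pairs, was picked after its values were seen. Like Cpa3, it was highest in WT replicate 1 in baseline medium. The list summed to 620.3 to 691.9 and 602.2 to 649.7 FPKM in baseline cultures and to 831.6 to 993.1 and 829.0 to 988.0 with cytokines (WT and Adcy10-/-), most of it from Srgn, the granule proteoglycan serglycin, which lymphocytes also make. Srgn rose with cytokines by 0.52 (SE 0.06, limma adjusted p = 0.000116).

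B cell markers separated the libraries numbered 1 from the rest. Their sum was 3.15 to 97.2 FPKM in WT and 14.8 to 60.4 in Adcy10-/- baseline cultures, and 3.55 to 59.6 and 8.27 to 43.7 with cytokines. On average 8 of the 11 tested genes were lower in Adcy10-/- (median -0.08), 10 of 11 with cytokines (median -0.12), and 0 passed limma between genotypes (0 at an unadjusted p under 0.05). Of all tested genes, 56.2% were lower on average and 57.0% with cytokines. The WT libraries numbered 1, highest for Lyz2, were the lowest in B cell markers. Spi1 was low in the libraries numbered 1 of each group, and so were Syk, Btk and Plcg2 of the Fc receptor and adaptor list. Plcg2 stood at 1.22 to 1.37 FPKM there and at 3.19 to 5.15 in the other 8. Red cell and platelet markers summed to 195.5 and 128.3 FPKM in the Adcy10-/- libraries numbered 3 and to 2.53 to 28.6 in the other 10. Dendritic cell markers summed to 817.3 to 847.2 FPKM in WT and 783.4 to 840.5 in Adcy10-/- baseline cultures, and to 660.1 to 787.1 and 617.6 to 681.8 with cytokines, with Flt3, Xcr1, Clec9a, Cd209a, Siglech and Clec10a under 0.5 FPKM throughout. The highest means of the dendritic cell list were those of Ccr7, Bst2, Cd74 and H2-Aa. Its sums come from T cell cultures and do not show which cells made these transcripts. On average 7 of the 9 tested dendritic cell genes were lower in Adcy10-/- (median -0.37), 9 of 9 with cytokines (median -0.38), and 0 passed limma between genotypes (0 at an unadjusted p under 0.05). These counts stand beside the same shares of all tested genes, 56.2% and 57.0%. NK cell markers, of interest for Tyrobp and Fcer1g, summed to 40.8 to 49.6 FPKM in baseline cultures and 27.6 to 33.1 with cytokines, with Ncr1, Klrb1c, Klre1 and Klra8 under 0.5 FPKM throughout. Nkg7, Eomes, Gzma and Prf1 had the highest means of the NK cell list, and its sums do not show which cells made them either. Eosinophil markers summed to 0.808 to 7.06 FPKM over all libraries and CD8 T cell markers to 18.0 to 28.4. The part of any of these cell types in the members' levels was not tested.

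Genes that share a role with the members were counted in the averaged cytokine effect, by lists that leave the members out. Of all tested genes, 6.57% rose and 6.68% fell. In the list of myeloid transcription factors, 4 of 5 tested genes passed. Cebpb, a factor of myeloid and inflammatory genes, rose by 0.57 (SE 0.16, limma adjusted p = 0.0346). Id2 and Gfi1, factors that T cells also use, rose by 0.35 (adjusted p = 0.0051) and 0.46 (0.00242). Irf8, a factor of monocyte, dendritic and B cell development, fell by 0.73 on the log2 scale (SE 0.18, adjusted p = 0.0214). Spi1, the member of this family, was at 0.05. Between genotypes, averaged over media, 4 of the 5 were above 0 (median 0.03) and 0 passed limma. In the same contrast Fc receptor and adaptor genes were below 0 in 5 of 6 cases (median -0.20). Genes of the list of inhibitory receptors were below 0 in 7 of 8 (median -0.02). Of all tested genes, 56.2% were below 0.

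Fc receptor and adaptor signaling genes other than members did not pass limma, 0 of 6, with 0 at an unadjusted p under 0.05. In the fit with the block for each genotype and number, Hcst, the adaptor DAP10, and Btk, a kinase of B cells and myeloid cells, were lower, by limma adjusted p-values of 0.0459 and 0.0446. That is 2 of 6, and 14.6% of tested genes fell in that fit. Among inhibitory receptors, their phosphatases and the ligand of Sirpa, 3 of 8 passed. Lilrb4 and Gp49a, inhibitory and related receptors of near-identical sequence whose reads may be split between them, rose by 0.79 and 0.80 (limma adjusted p = 0.0109 and 0.00425). Cd47, the ligand of Sirpa, fell by 0.25 on the log2 scale (SE 0.05, adjusted p = 0.00903), from 66.9 to 81.9 FPKM in the WT baseline libraries to 58.15 to 63.65 with cytokines.

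Of 10 CC chemokine ligands other than members, 6 were tested and 0 passed limma, with 0 at an unadjusted p under 0.05. In the fit with the block for each genotype and number 5 of the 6 passed, where 26.7% of tested genes did. Ccl3 and Ccl4, the macrophage inflammatory proteins that activated T cells also secrete, and Ccl24 rose, and Ccl17 and Ccl22, ligands of Ccr4, fell. Ccl22 had the lowest limma adjusted p of these 5 with the block, 1.57e-05 (0.2 without it), with a change of -0.84. Ccl8 was listed at 0 in all 12 libraries.

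Of the macrophage and monocyte list, 3 of 9 passed: Ccr2 rose by 0.53 (limma adjusted p = 0.0143), Ly6c1 rose by 0.54 (0.021) and Ctss, cathepsin S, fell by 0.51 on the log2 scale (0.000305). Of the neutrophil list 1 of 5 passed, Lcn2, the iron-binding lipocalin, with a rise of 0.87 (SE 0.22, adjusted p = 0.0211), and with the block S100a8, S100a9 and Ngp rose too. With the block 4 of 5 rose, beside 12.1% of tested genes. Mast cell and basophil genes passed in 2 of 7 cases, Srgn and Csf1, and dendritic cell genes in 0 of 9 (1 at an unadjusted p under 0.05, Ccr7) and B cell genes in 0 of 11 (0 at an unadjusted p under 0.05). With the block, 6 of 9 dendritic cell genes (1 higher, 5 lower) and 6 of 11 B cell genes (1 higher, 5 lower) passed, where 26.7% of tested genes did.

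The genes whose pattern over the 12 libraries was most like that of the members were also described. The likeness is Pearson's r between a gene's log2(FPKM + 1) and the mean of the members' standardized values, over 9470 candidate genes with a mean of 1 FPKM or more. The 10 closest were Clec4e (0.98), Clec7a (0.975), Clec4n (0.946), Irg1 (0.946), Cfb (0.945), Il1a (0.942), Hp (0.94), Tnfaip2 (0.919), Lpl (0.916) and Il1b (0.913). Clec4e, Clec7a and Clec4n encode C-type lectins that bind fungal and mycobacterial glycans, Irg1 the enzyme that makes itaconate, and Il1a and Il1b the interleukins. Within groups, on residuals from the 4 group means, 5 of these 10 were again among the closest 10: Cfb, Clec4e, Clec4n, Clec7a and Lpl. The 12 points share groups and replicate numbers and their depth is unknown, so these correlations are descriptions.

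Clec7a, dectin-1, showed the pattern at the level of single cultures. It was at 2.31, 0.712 and 1.78 FPKM (WT baseline), 0.195, 0.907 and 0.720 (Adcy10-/- baseline), 5.38, 1.15 and 3.48 (WT with cytokines) and 0.761, 1.27 and 1.03 (Adcy10-/- with cytokines). As for Ccl6, WT replicates 1 and 3 stood high in each medium, and at number 2 the Adcy10-/- library exceeded its WT counterpart. Of the members, Ccl6 (r = 0.964), Sirpa (0.937) and Tyrobp (0.936) lay closest to the common pattern, and Spi1 (0.416) lay farthest. Each member is part of the mean it is set against, which raises its r, so these values cannot be compared with those of other genes. Within groups Spi1 had an r of -0.118.

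Fcer1g and Fcgr2b lie on chromosome 1, as Adcy10 does. Of 26 neighbouring genes with no role specific to myeloid cells, 17 passed the filter. Their averaged difference between genotypes had a median of 0.00, with 9 of 17 below 0, and 0 passed limma, with 0 at an unadjusted p under 0.05. Of all tested genes, 56.2% were below 0. With cytokines, Atf6 rose and Uap1 fell. The list summed to 610.1 to 665.5 FPKM over all libraries.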

How the data were processed

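Polyadenylated RNA of 12 libraries was analysed in 4 groups of 3. Per the submitters' processing notes, STAR 2.4.0f1, SAMtools 0.1.19, Cufflinks and HTSeq were used with mm9, with no roles given. The authors deposited FPKM per gene. Depth cannot be read from FPKM, and error is measured by how libraries of a group differ. A file lists 24488 entries under 23991 symbols, and the entries of 258 symbols that recur were summed.

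Values were transformed as log2(FPKM + 1) without further scaling. Symbols with 1 FPKM or more in 3 or more libraries (10126) entered a model in R 4.3.3 with data.table (version 1.17.8) and limma 3.58.1, fitted as 4 group means with a variance trend, and p-values were adjusted over all of them by the Benjamini-Hochberg method (threshold 0.05). SE are moderated and intervals are 95%. The rest was done in Python 3.11.15 with pandas 2.3.3, numpy 2.4.6, matplotlib 3.10.9 and scipy 1.17.1. For the members, genotype values are given without a test.

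The members and the 15 gene lists were chosen with earlier results of these data known. Named genes are all members, Adcy10, and of each list up to 4 with the highest mean, up to 3 per contrast that passed with the largest change, and those at 0 throughout. All genes of the mast cell and basophil list are also named. Of the list of CC chemokines and receptors, the receptors are not reported here. The 10 genes most like the members were ranked by Pearson's r. Genes named from a fit with a block, from an unadjusted p or from a level under 0.5 FPKM were taken after their values were seen.

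Whether replicate numbers pair the libraries was checked on residuals. Residuals of libraries sharing number and genotype correlated at 0.294 to 0.536 (6 pairs). Where only the number was shared they correlated at 0.074 to 0.523 (12 pairs), so the block within genotype is given beside the cytokine effects. Alternatives were other pseudocounts (0.1 and 0.5 FPKM), filters (none, or 5 FPKM), median-ratio scaling, quantile normalization, no variance trend, both blocks, fits of the 2 groups compared, and leaving out each library or the 4 numbered 1. The model was tested on simulated data of 10126 genes: for the averaged cytokine effect it recovered 94% of 50 genes changed 1.5-fold and 100% of 50 changed 2-fold, with 5.74% false among calls. The changes were added on the log2(FPKM + 1) scale, to genes with a mean above 1 on it. The simulated noise was independent between libraries, without the shared deviations of libraries of the same number. These rates therefore do not carry over to low members or to the real replicates. Promoters are from RefSeq (GRCm38.p6), and no coordinates of the authors' build were used.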

Additional observations from a re-analysis of the deposited data

How the results depend on the processing

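In the averaged cytokine effect, 1341 genes passed, 2625 with the replicate block across genotypes and 2708 with the replicate block within genotype. Of the members 1 passed, against 2 and 6 with these blocks, and 2 without the 4 libraries numbered 1 (Lyz2, adjusted p = 0.0405 by limma, and Fcer1g). Leaving out 1 library at a time gave 910 to 1300 genes and 1 to 3 members. The 3 (Tyrobp, Fcer1g and Sirpa) came without WT replicate 2 with cytokines. Counts of members that include Sirpa carry the limit that the filter sets on it. In WT, 499 genes passed, 1502 and 1574 with the blocks, 275 in a fit of the 2 groups and 164 to 536 without 1 library. The lowest came without WT baseline replicate 2. Members passing in WT were 0, with 1 under quantile normalization, 1 and 6 with the blocks, and 0 to 2 without 1 library. In Adcy10-/-, 432 genes passed, 1086 and 1193 with the blocks, 205 without the libraries numbered 1 and 196 to 465 without 1 library, the lowest without Adcy10-/- replicate 1 with cytokines. Members passing there were 0, and 2 with the block within genotype. The interaction had 0 genes, 1 without the libraries numbered 1 and 0 to 1 without 1 library. The genotype difference had 0 genes, 3 with the replicate block across genotypes, 2 without the libraries numbered 1 and 0 to 1 without 1 library. The causes of these shifts were not tested.

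Signs turned for members near 0. Without the libraries numbered 1, Spi1 changed with cytokines by -0.022 in WT, -0.078 in Adcy10-/- and -0.05 on average, and under quantile normalization the interaction of Cpa3 was -0.002. Without 1 library the averaged effect ran from -0.171 to 0.034 for Cpa3 and from -0.099 to 0.163 for Spi1. In WT it ran from -0.286 to 0.125 for Cpa3 and from -0.169 to 0.293 for Spi1. In Adcy10-/- it ran from -0.031 to 0.251 for Ccl9, -0.153 to 0.324 for Fcgr2b and -0.275 to 0.25 for Spi1. The interaction ran from -0.612 to 0.1 for Ccl6, -0.268 to 0.088 for Ccl9, -0.181 to 0.23 for Cpa3, -0.783 to 0.322 for Lyz2, -0.43 to 0.071 for Sirpa, -0.352 to 0.2 for Spi1 and -0.422 to 0.064 for Tyrobp. The genotype difference kept its sign for all 9 members in every fit made. The members were chosen by that sign and the fits share libraries, so nothing is read from its being kept. The filter of 5 FPKM left out every member but Lyz2, Tyrobp and Fcer1g. The depth is unknown, and values near 1 FPKM rest on few reads.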

Other observations

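Among marker genes other than members, 6 with their highest level in 1 culture are given here. WT replicate 1 in baseline medium held the highest level of the 12 libraries for Mpo (2.87 FPKM), a peroxidase of neutrophil granules, Ctsg (2.37) and Prtn3 (1.34), serine proteases of the same granules, Prg2 (6.52), the major basic protein of eosinophils, Mcpt8 (3.69), the basophil protease, and Pf4 (2.97), a platelet chemokine. Cpa3 was at 1.85 FPKM there, also its highest. In the WT library with cytokines of the same number, Mpo was at 1.29 FPKM and Prg2 at 3.73. In Adcy10-/- replicate 1 in baseline medium they were at 0.692 and 0.883. These genes were picked after their values were seen, and 1 culture gives no replicate check.

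The late neutrophil genes had another high culture. S100a8 was at 8.66 FPKM in WT replicate 3 in baseline medium and at 27.45 with cytokines, against 1.25 and 4.09 in WT replicate 1. Camp, a granule peptide, was at 2.67 FPKM in WT replicate 3 with cytokines and at 0.0 in both Adcy10-/- libraries numbered 1.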
